A study of Mus musculus with 6 samples.

Results

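Imprinted genes are transcribed mainly from the chromosome inherited from 1 parent, and 30 autosomal imprinted genes of the mouse were compared here between female and male blastocysts. They are the genes of a list of known imprinted genes to which at least 1 array probe was assigned alone. No measured value enters that rule, but the list was chosen with earlier results of these data known. It does not hold every imprinted gene on the arrays. They are 30 of 8973 named genes on the arrays. Of them, 17 are expressed from the maternal chromosome (H19, Cdkn1c, Grb10, Meg3, Ascl2, Kcnq1, Tssc4, Cd81, Tspan32, Osbpl5, Gatm, Calcr, Dcn, Ppp1r9a, Rian, Nap1l4 and Copg2). The other 13 are expressed from the paternal chromosome (Igf2, Peg3, Ndn, Magel2, Mkrn3, Sgce, Dlk1, Plagl1, Nnat, Kcnq1ot1, Airn, Slc38a4 and Nap1l5). The embryos came from superovulated B6C3F1 females of 8 weeks mated with XGFPY males, were flushed at the four-cell stage and were cultured for 38 h to the blastocyst, labelled E3.5. They received no treatment. The name XGFPY is that of males with a GFP gene on the X chromosome, which fathers pass to daughters and not to sons, so all female pools carry it and no male pool does. RNA was pooled from over 200 embryos of each sex, so a pool and not an embryo is the unit. Each of 3 preparations gave a female and a male pool, which were hybridised together on 2-colour Agilent arrays in both dye orientations, 6 arrays in all. The RNA was amplified before labelling.

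Imprinting rests on DNA methylation that is set in the egg or the sperm at control regions, survives the demethylation of the early embryo, and silences or permits genes of a whole cluster on that chromosome. In a cluster such as that around Kcnq1, a long non-coding RNA made from the paternal chromosome silences its neighbours there, so they are expressed from the maternal copy. Several of the genes are imprinted only in the placenta or the brain, and part of the allelic silencing is acquired after the blastocyst. An array measures the sum of both alleles, so a ratio of total RNA says nothing of which allele was transcribed.

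The sequences below show CG sites at starts of imprinted genes, whose methylation was not measured in these blastocysts. They are promoters of GRCm38.p6 from RefSeq, 250 bases before to 50 after a transcription start, written 5′ to 3′ on the strand of the gene, with each CG dinucleotide, the target of DNA methylation, in capitals. The starts of Kcnq1ot1, Nap1l5 and Plagl1 are known to lie in regions methylated in the egg, and that of Meg3 in a region methylated on the paternal chromosome. Kcnq1ot1 is at chr7:143296498-143296797 on the minus strand and holds 9 CG, Nap1l5 at chr6:58907077-58907376 on the minus strand with 17, Plagl1 at chr10:13090582-13090881 on the plus strand with 26, and Meg3 at chr12:109540746-109541045 on the plus strand with 13.
Kcnq1ot1: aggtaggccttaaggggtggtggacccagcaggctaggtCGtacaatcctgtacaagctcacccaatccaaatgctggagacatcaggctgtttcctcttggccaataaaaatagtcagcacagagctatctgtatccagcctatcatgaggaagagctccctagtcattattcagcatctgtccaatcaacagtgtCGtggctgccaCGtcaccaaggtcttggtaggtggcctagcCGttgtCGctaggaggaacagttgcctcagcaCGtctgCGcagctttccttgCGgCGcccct
Nap1l5: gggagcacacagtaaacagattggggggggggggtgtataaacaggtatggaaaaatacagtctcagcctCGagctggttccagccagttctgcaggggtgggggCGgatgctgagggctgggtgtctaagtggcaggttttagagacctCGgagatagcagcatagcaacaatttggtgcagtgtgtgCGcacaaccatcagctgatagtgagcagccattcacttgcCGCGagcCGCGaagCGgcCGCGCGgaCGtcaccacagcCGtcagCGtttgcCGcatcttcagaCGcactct
Plagl1: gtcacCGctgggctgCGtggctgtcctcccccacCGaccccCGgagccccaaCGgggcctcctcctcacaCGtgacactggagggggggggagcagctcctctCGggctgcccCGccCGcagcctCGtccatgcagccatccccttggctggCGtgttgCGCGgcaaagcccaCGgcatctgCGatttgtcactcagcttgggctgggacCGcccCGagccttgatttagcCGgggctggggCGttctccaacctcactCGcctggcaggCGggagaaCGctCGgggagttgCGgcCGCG
Meg3: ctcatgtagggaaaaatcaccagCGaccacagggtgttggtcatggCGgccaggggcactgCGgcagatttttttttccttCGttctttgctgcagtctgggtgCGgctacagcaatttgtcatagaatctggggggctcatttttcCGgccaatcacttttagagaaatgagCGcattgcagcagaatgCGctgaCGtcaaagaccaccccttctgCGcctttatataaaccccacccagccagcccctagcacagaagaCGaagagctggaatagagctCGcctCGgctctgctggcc

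Of the 30 genes, 24 had a promoter in the RefSeq table, with 35 starts between them. Their median was 13 CG, against 7 over all 32851 promoters of the same length, of which 94.6% hold at least 1 CG. Maternally expressed genes had a median of 18.5 over 18 starts, from 0 at Rian to 48 at a start of Ppp1r9a. Paternally expressed genes had a median of 10 over 17 starts, from 2 at a start of Igf2 to 26 at Plagl1. A count of CG letters describes the window and does not show methylation.

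Values below are log2 ratios of female over male RNA, taken from deposited ratios read as log10 of Cy5 over Cy3, and a positive value means more RNA in the pool labelled female. Errors are SDs over 3 preparations. Xist, the RNA of the inactive X chromosome, and the Y-linked Eif2s3y check the sex labels. Xist stood at 2.25 and 2.09 in preparations 1 and 2 and at -1.55 in the preparation labelled 3. Eif2s3y stood at -1.75, -1.76 and 1.93, so the preparation labelled 3 went against its labels on both genes and in both dye orientations. The labels were kept for the test. For the genes whose labelled mean is given, the mean with the sign of preparation 3 turned is given as well. Every direction that rests on preparation 3 depends on this choice.

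None of the 30 imprinted genes passed the test for a difference between the sexes. limma, fitted over all 18606 rows with labels kept, gave an adjusted p = 1 for each of them and called 0% of rows. At an unadjusted p under 0.05 it found 0 of 30 genes, where 2.60% of all rows passed. With preparation 3 turned it called 0 rows as well, and 1 of 30 genes, Nap1l4, had an unadjusted p under 0.05, where 7.29% of all rows did. Xist and Eif2s3y were not called in either reading (limma adjusted p = 0.465 and 0.187 with preparation 3 turned). A lack of calls in those readings therefore says little about the imprinted genes. In a fit of the 6 arrays with preparation as block and a dye term, preparation 3 turned, 0.210% of rows were called and 0 of the 30 genes. That fit called 3 of the 4 sex-linked genes measured to check the labels. Preparation 3 was turned because of such genes, so these calls do not show what the fit could find in the imprinted genes. The 95% intervals of the labelled means lay within 1 of 0, a change of 2-fold, for 28 of 30 genes. The exceptions were Ascl2 (-1.09 to 0.55) and Ppp1r9a (-1.17 to 0.084). For 21 of 30 genes the interval lay within 0.5 of 0. Labelled means can understate a sex difference, as that of Xist was 0.93, against 1.97 with preparation 3 turned. In the turned reading the intervals lay within 1 of 0 for 28 of 30 genes and within 0.5 for 22. Ascl2 (-1.11 to 0.47) and Ppp1r9a (-1.28 to 0.49) were again the exceptions. Differences inside those intervals could not be resolved with 3 preparations.

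**Figure D1:**
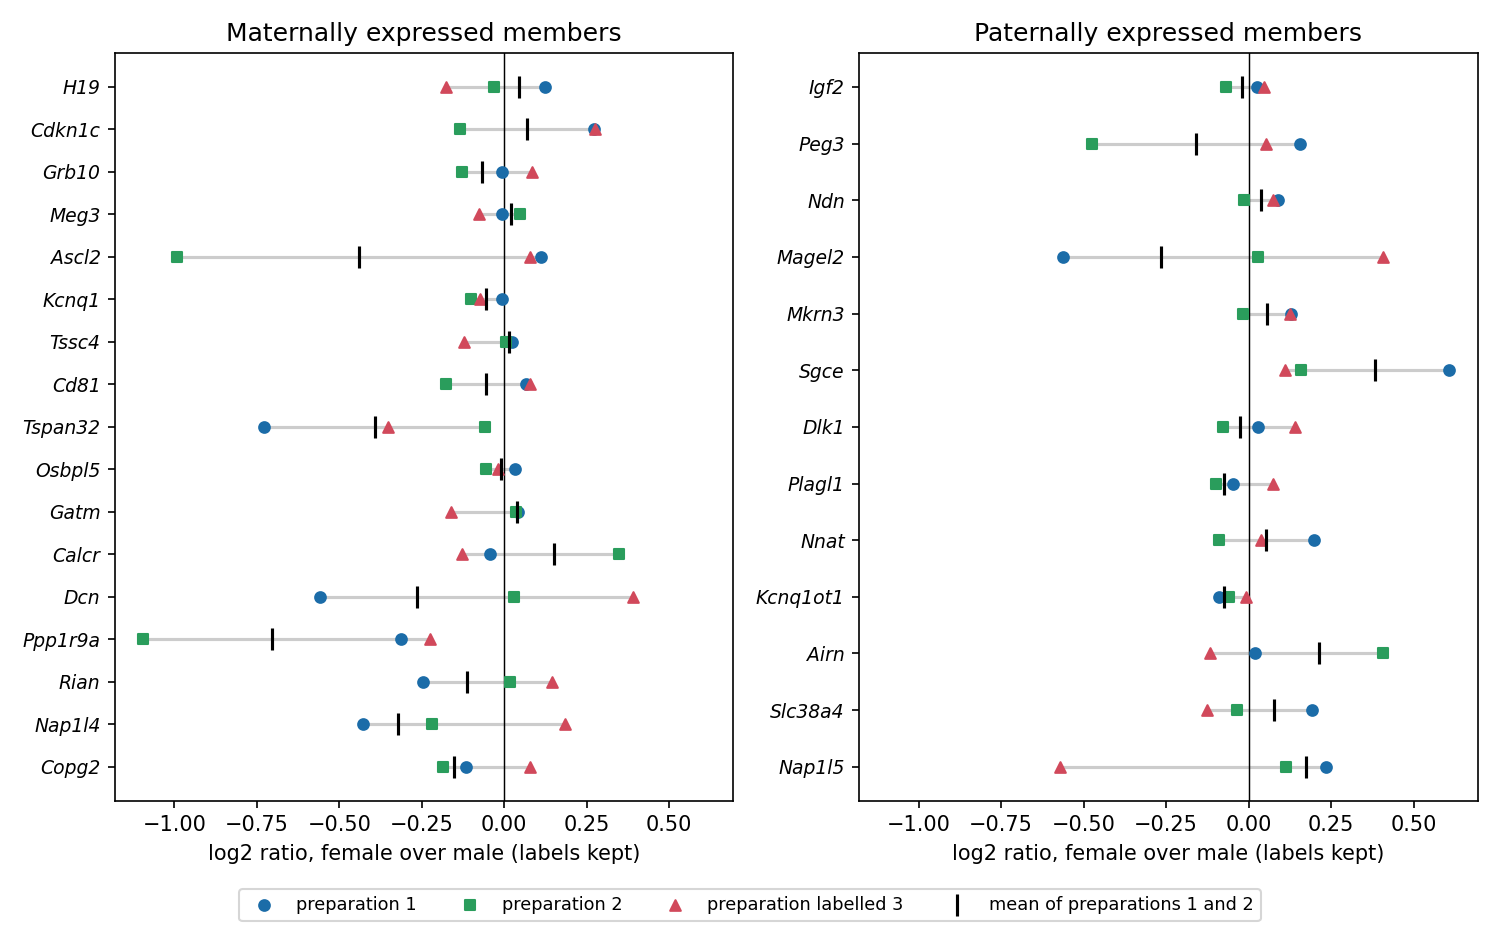
Log2 ratio of female over male (horizontal axis, labels kept) of each maternally (left) and paternally (right) expressed gene, with 1 point per preparation, the mean of its 2 dye orientations; black ticks are means of preparations 1 and 2 and grey lines span the 3 preparations. Most points lie within 0.5 of 0, and the widest spans are those of Ascl2, Ppp1r9a, Dcn and Magel2.

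As classes, both lay near 0. Maternally expressed genes had medians of -0.0063, -0.057 and -0.018 in preparations 1, 2 and the one labelled 3, and paternally expressed genes 0.088, -0.034 and 0.052. All 8628 named autosomal genes had medians of 0.0056, -0.0015 and -0.00029. The median of the maternally expressed class was 0.095 below that of the paternally expressed class in preparation 1, 0.023 below in preparation 2 and 0.071 below in the preparation labelled 3. The mean difference was -0.063 ± 0.037 (SD, n = 3) as labelled and -0.059 over preparations 1 and 2. With the sign of the preparation labelled 3 turned, the mean difference was -0.016 ± 0.083 (SD, n = 3), within the spread between preparations. Of the maternally expressed genes, 15 of 17 had a labelled mean below 0. In single preparations the counts below 0 were 10, 11 and 9 of 17, over preparations 1 and 2 together 11, and with preparation 3 turned 12. The count of 15 therefore rests on how the 3 preparations were averaged. Of the paternally expressed genes, 5 of 13 had a labelled mean below 0 and 7 had one with preparation 3 turned, where Ndn stood at exactly 0. Among named autosomal genes 52.2% had a labelled mean above 0.

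As labelled, the size of the ratios was similar to that of other genes, and with preparation 3 turned it was larger. The median absolute labelled mean was 0.050 for the 30 genes and 0.047 for all named autosomal genes. With preparation 3 turned it was 0.084 and 0.062. The SD between preparations had a median of 0.15 for the imprinted genes and 0.11 for all named autosomal genes. Over preparations 1 and 2, 1 of 30 genes, Ppp1r9a, lay beyond 0.5 in either direction, where 0.834% of named autosomal genes did.

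The largest imprinted cluster measured was that of Kcnq1 on chromosome 7, with 9 genes. Nap1l4, which encodes a nucleosome assembly protein, was below 0 in both preparations whose labels matched Xist. It stood at -0.30 and -0.55 on the arrays of preparation 1 with female RNA in Cy5 and in Cy3, at -0.11 and -0.32 on those of preparation 2, and at 0.39 and -0.016 on those labelled 3. All 4 arrays of preparations 1 and 2 were thus below 0, and the arrays labelled 3 lay on either side of 0. Its mean was -0.15 ± 0.31 as labelled and -0.28 ± 0.13 with preparation 3 turned (n = 3, limma adjusted p = 0.646). Its 95% interval in the latter case ran from -0.49 to -0.068. Kcnq1ot1, the non-coding RNA that silences the cluster on the paternal chromosome, was below 0 on the same 4 arrays, at -0.00056 and -0.18 in preparation 1 and -0.0074 and -0.11 in preparation 2. In the preparation labelled 3 it stood at 0.0038 and -0.018, with a mean of -0.052 ± 0.042 as labelled and -0.048 ± 0.050 with preparation 3 turned. These values are means of 7 probes, and with the median of the probes the labelled mean was 0.0070. Nap1l4 and Kcnq1ot1 were the 2 of the 30 genes below 0 on all 4 arrays, where 5.97% of named autosomal genes were. None was above 0 on all 4, where 5.35% of named autosomal genes were.

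Ascl2, a transcription factor required for the placenta, varied most within the cluster. Its arrays read 0.49 and -0.27 in preparation 1, 0.46 and -2.44 in preparation 2 and 0.21 and -0.054 in the preparation labelled 3. A single array, that of preparation 2 with female RNA in Cy3, set its labelled mean of -0.27 ± 0.63, which was 0.094 without preparation 2 and -0.32 ± 0.59 with preparation 3 turned. Tspan32, a tetraspanin, read -1.38 and -0.076, then 0 and -0.11, then 0 and -0.71, with a mean of -0.38 ± 0.34 as labelled and -0.14 ± 0.55 with preparation 3 turned. Its readings of 0 are exact zeros in the deposited table. Cdkn1c, an inhibitor of cyclin-dependent kinases, stood at 0.27, -0.13 and 0.28 in the 3 preparations, and its pair of arrays in preparation 1 differed most of all, at 1.98 and -1.44.

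The remaining genes of that cluster stayed within 0.2 of 0 in each preparation. Kcnq1, a potassium channel, stood at -0.0080, -0.10 and -0.073. Tssc4 stood at 0.024, 0.0063 and -0.12, and the tetraspanin Cd81 at 0.066, -0.18 and 0.077. Osbpl5, of the oxysterol-binding protein family, stood at 0.033, -0.054 and -0.018. The median of the cluster was 0.024, -0.10 and -0.0071 in the 3 preparations, with 4, 8 and 5 of 9 genes below 0, so no direction was shared by all preparations.

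The growth factor gene Igf2 and its neighbour H19, a non-coding RNA expressed from the opposite chromosome, showed small ratios. Igf2 stood at 0.026, -0.067 and 0.046, with a mean of 0.0015 ± 0.060 as labelled and -0.029 ± 0.049 with preparation 3 turned. H19 stood at 0.12, -0.032 and -0.18, with a mean of -0.028 ± 0.15 as labelled and 0.089 ± 0.11 with preparation 3 turned, so its sign depends on that preparation. The 95% interval of the labelled mean was -0.16 to 0.16 for Igf2 and -0.26 to 0.21 for H19. With preparation 3 turned it was -0.16 to 0.10 for Igf2 and -0.095 to 0.27 for H19. Grb10 on chromosome 11, an adaptor that dampens signalling from the insulin and IGF receptors, stood at -0.0063, -0.13 and 0.083. Plagl1 on chromosome 10, a zinc finger factor, stood at -0.048, -0.10 and 0.075. Its value with preparation 3 turned, -0.074 ± 0.026, had the smallest SD of the 30 genes in that setting. That SD is taken over averages of both orientations, which disagreed in sign for Plagl1 in preparations 1 and 2.

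In the Dlk1 and Meg3 cluster of chromosome 12, the non-coding RNAs Meg3 and Rian are maternally and Dlk1, a transmembrane relative of Notch ligands, is paternally expressed. Meg3 stood at -0.0057, 0.048 and -0.078 as the mean of 8 probes, and Dlk1 at 0.029, -0.078 and 0.14. Rian stood at -0.25, 0.017 and 0.14 over 3 probes. No gene of the cluster kept its sign in all 3 preparations as labelled, nor with preparation 3 turned.

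On chromosome 6, Sgce, a sarcoglycan gene, had the largest positive labelled mean of the 30 genes and Ppp1r9a, which encodes the actin-binding neurabin, the largest negative one. Sgce read -0.32 and 1.53 in preparation 1, 0.26 and 0.061 in preparation 2 and 0.42 and -0.20 in the preparation labelled 3. Its mean was 0.29 ± 0.27 as labelled, with each preparation above 0, and 0.22 ± 0.36 with preparation 3 turned, below that of Nap1l5. Ppp1r9a read -0.91 and 0.29, then 0.49 and -2.67, then -0.51 and 0.063. Its mean was -0.54 ± 0.48 as labelled, -0.39 ± 0.66 with preparation 3 turned and -0.27 without preparation 2. In each gene 1 array lay far from the other 5. The 2 orientations gave opposite signs in preparations 1 and 3 for Sgce and in all 3 preparations for Ppp1r9a. Calcr, the calcitonin receptor, stood at -0.044, 0.35 and -0.13. Copg2, a coatomer subunit gene beside Mest, stood at -0.12, -0.19 and 0.077, with a mean of -0.076 ± 0.14 as labelled. Once preparation 3 was turned, the mean of Copg2 was -0.13 ± 0.056 (95% interval -0.26 to 0.010, limma adjusted p = 0.685). Its orientations disagreed in sign in preparation 1 and in the one labelled 3.

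Nap1l5, an intronless gene related to Nap1l4 on the same chromosome as Sgce, stood at 0.24, 0.11 and -0.57. Its arrays read 0.53 and -0.061, then -0.56 and 0.79, then -0.67 and -0.48. Turning preparation 3 moved its mean from -0.075 ± 0.44 to 0.31 ± 0.24, the largest positive mean in that setting (limma adjusted p = 0.685, n = 3). The orientations of preparations 1 and 2 disagreed in sign.

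The paternally expressed genes of the Ndn region of chromosome 7 had mixed values. Ndn, of the MAGE family, stood at 0.088, -0.013 and 0.075, and Mkrn3, a ubiquitin ligase, at 0.13, -0.018 and 0.12. Magel2, also of the MAGE family, read -0.073 and -1.05, then 1.18 and -1.12, then 0.64 and 0.18. Its preparation means were -0.56, 0.028 and 0.41. Peg3, a zinc finger gene of the same chromosome, stood at 0.15, -0.47 and 0.052. Airn, the non-coding RNA that silences Igf2r on chromosome 17, read -0.77 and 0.81, then -0.58 and 1.40, then -0.38 and 0.15. Its sign followed the dye on each array, and its mean was 0.10 ± 0.27 as labelled and 0.18 ± 0.20 with preparation 3 turned.

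The remaining single loci gave small or uneven ratios. Gatm on chromosome 2, an enzyme of creatine synthesis, stood at 0.042, 0.037 and -0.16. Dcn on chromosome 10, which encodes the proteoglycan decorin, stood at -0.56, 0.028 and 0.39. Its mean was -0.047 ± 0.48 as labelled and -0.31 ± 0.30 with preparation 3 turned. The orientations of Dcn disagreed in sign in preparations 1 and 2. Nnat on chromosome 2, a membrane proteolipid, stood at 0.20, -0.088 and 0.039. Slc38a4 on chromosome 15, an amino acid transporter, stood at 0.19, -0.034 and -0.13.

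Dye effects in the imprinted genes were larger in size than female over male ratios. The dye effect, the mean of Cy5 over Cy3 over all 6 arrays, does not depend on the sex labels. Its median absolute size was 0.17 for the 30 genes and 0.11 for all named autosomal genes, against 0.084 and 0.062 for the female over male ratio with preparation 3 turned, the larger of both readings. It exceeded 0.5 in 6 of 30 genes, Cdkn1c (0.83), Dcn (0.71), Airn (-0.68), Ascl2 (0.65), Magel2 (0.62) and Rian (-0.52), where 6.97% of named autosomal genes did. For 8 of 30 genes Cy5 over Cy3 had the same sign on all 6 arrays, where 23.2% of named autosomal genes had. Across the 30 genes, which are not independent replicates, the female over male ratios of the 2 orientations correlated at r = -0.58 in preparation 1, -0.65 in preparation 2 and -0.14 in the preparation labelled 3. Over named autosomal genes the same values were -0.49, -0.49 and -0.33. The averaged ratios of preparations 1 and 2 correlated at r = 0.10 over the 30 genes, against -0.031 over named autosomal genes and 0.52 over 312 named X-linked genes. By rank, Spearman's rho was 0.051 over the 30 genes and 0.12 over named autosomal genes. Over the X-linked genes the preparation labelled 3 correlated at r = -0.64 with preparation 1 and at -0.45 with preparation 2. Over the 30 genes these values were -0.14 and -0.036. Both arrays of a preparation share their RNA, and all arrays share the probes.

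**Figure D2:**
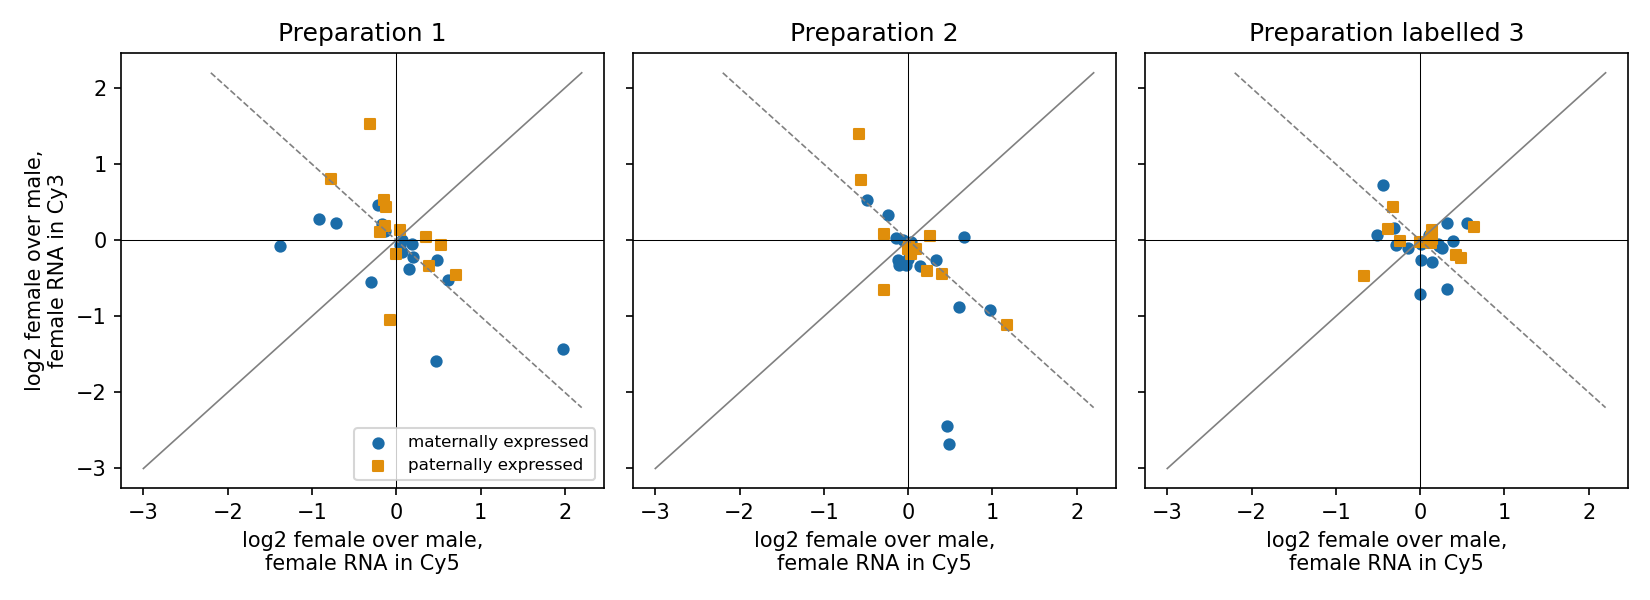
Log2 ratio of female over male of the 30 genes on the array with female RNA in Cy5 (horizontal axis) and in Cy3 (vertical axis), with 1 panel per preparation; circles are maternally and squares paternally expressed genes. The solid diagonal marks equal ratios in both orientations and the dashed one a pure dye effect; in preparations 1 and 2 the points run along the dashed line (r = -0.58 and -0.65).

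Where a gene had several probes, they often disagreed. In all, 50 probes measured the 30 genes, and 22 genes rested on 1 probe. Sgce had 1 probe at 0.78 and another at -0.015, as means over preparations 1 and 2, so its ratio came from 1 of 2 probes. Peg3 had probes at 0.18 and -0.50, and the 7 probes of Kcnq1ot1 ran from -0.42 to 0.11. The 8 probes of Meg3 ran from -0.23 to 0.23 in the female over male ratio and from -1.61 to 0.11 in dye effect. The 3 probes of Rian all lay below 0, from -0.22 to -0.054, with dye effects from -1.49 to -0.014. Igf2 and H19 each had a probe on either side of 0.

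**Figure D3:**
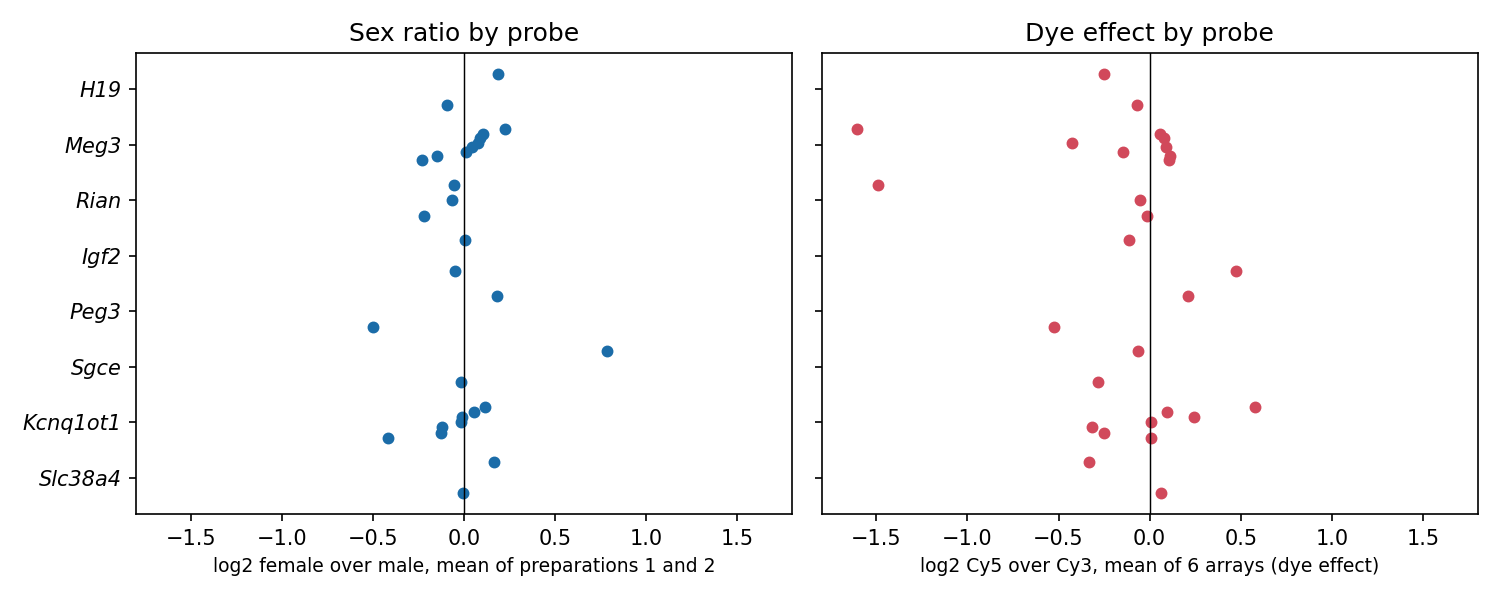
Values of each probe for the 8 genes with several probes: the log2 ratio of female over male averaged over preparations 1 and 2 (left) and the dye effect, log2 Cy5 over Cy3 averaged over 6 arrays (right). The farthest points from 0 are a probe of Sgce at 0.78 on the left, and probes of Meg3 at -1.61 and Rian at -1.49 on the right.

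Other imprinted genes on the arrays had small ratios too. Of 29 further maternally expressed genes listed, 13 were measured, and limma called 0 with labels kept and 0 with preparation 3 turned, with 0 and 1 at an unadjusted p under 0.05. Their medians were -0.012, 0.015 and 0.064 in the 3 preparations. The gene of that list with 1 sign on all 4 arrays of preparations 1 and 2 was Ddc, an aromatic amino acid decarboxylase beside Grb10, at 0.20, 0.10 and -0.085. Of 24 further paternally expressed genes 5 were measured, with medians of 0.011, 0.036 and 0.089. The IGF pathway list, with receptors, binding proteins and adaptors, had 10 measured genes and medians of 0.0025, 0.064 and -0.15. In both of these lists limma called 0 genes in either reading, with 0 at an unadjusted p under 0.05.

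A list of genes of imprint maintenance and DNA methylation in general had medians that changed sign with Xist. It is not limited to genes that protect or set methylation at imprints. The 22 measured genes had medians of 0.074 and 0.068 in preparations 1 and 2 and -0.10 in the preparation labelled 3, and 16 of 22 had a positive mean over preparations 1 and 2, against 52.1% of named autosomal genes. Neither imprinted class followed that order. Dppa3, which shields imprints in the zygote, stood at 0.22, 0.23 and -0.19. Ehmt2, a histone methyltransferase, stood at 0.32, 0.14 and -0.26, and Ctcf, the insulator protein that binds the H19 control region, at 0.15, 0.096 and -0.15. Mbd2, a reader of methylated DNA, stood at -0.17, -0.12 and 0.17. limma called 0 of the 22 with labels kept and 0 with preparation 3 turned, with 0 and 5 at an unadjusted p under 0.05, where 2.60% and 7.29% of all rows passed. Markers of the inner cell mass moved with them, at medians of 0.13, 0.084 and -0.12 over 10 genes, of which 8, 9 and 1 were above 0. Their part in these values was not tested. In a pool, fewer cells of a type and less RNA per cell cannot be told apart.

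**Figure D4:**
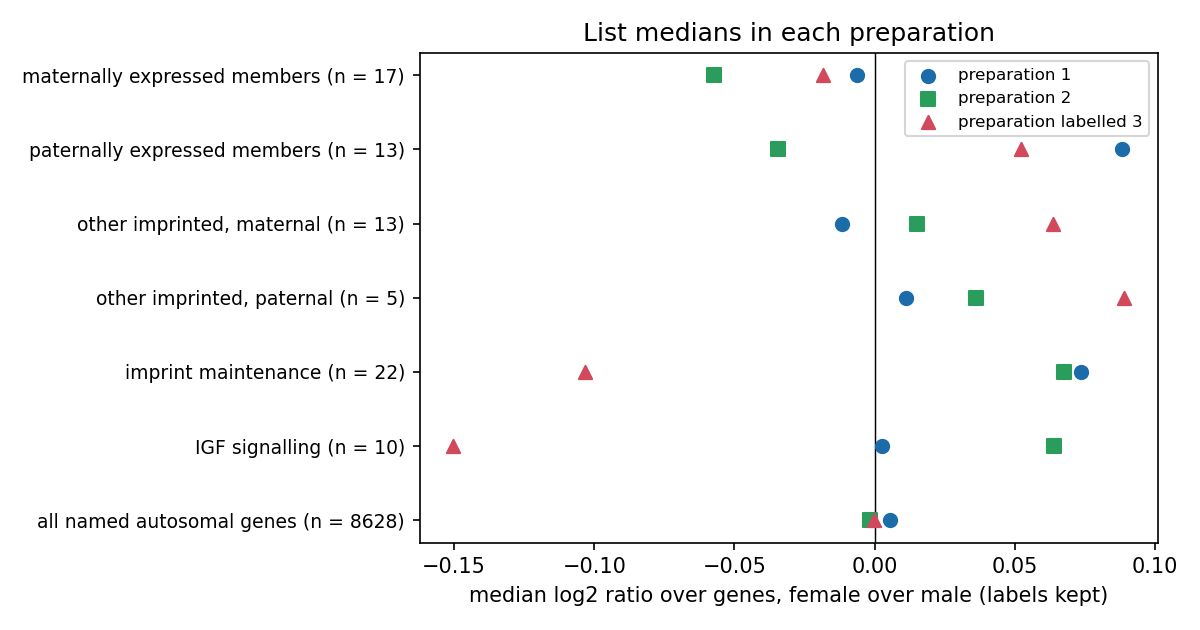
Median log2 ratio of female over male in each preparation (horizontal axis, labels kept) for both classes of imprinted genes, 4 further lists and all named autosomal genes, with the number of genes in brackets. The imprint maintenance list, which also holds other DNA methylation genes, lies at 0.074, 0.068 and -0.10 in preparations 1, 2 and the one labelled 3. The maternally expressed class lies at -0.0063, -0.057 and -0.018.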

How the data were processed

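The table that the authors deposited gives a log10 ratio of the 2 channels for 21446 features on each of 6 arrays. No source used here gives the log base, sign or centring: log10 was inferred from values that end at exactly -2 and 2, and Cy5 over Cy3 was assumed, so every size and sign rests on that reading. Multiplying by 3.32 gave log2. The design text names Agilent Feature Extraction for the scans and Luminator for joining arrays, without saying which wrote the table. The deposited columns had medians from 0 to 0.00223. Signal intensities were not used here, so dim and saturated spots stayed in and neither levels nor the presence of tissue markers could be checked. The number of preparations limits the precision.

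Probes were named through the platform annotation, with symbols updated from the RefSeq gene table of GRCm38.p6 (11782 of 11813 single-symbol probes matched). Another 559 carried several symbols, 4 of them with an imprinted gene listed here, and 9074 were unlisted; all were tested as unnamed rows. Arrays were turned so that female is over male, probes averaged per gene, and both orientations averaged per preparation. The same preparation number marks the same RNA extracts, per the labels, so they were 1 replicate; deviations of the paired arrays correlated at -0.078, -0.23 and 0.14 across genes. The mean of 3 preparations was tested against 0 (2-sided) with limma 3.58.1 (R 4.3.3), with Benjamini-Hochberg adjustment at 0.05 over 18606 rows. The test was also run on simulated data in which all 3 preparations changed in the same direction. That differs from the labelled data, so it does not show what the labelled test could find. Members and lists were chosen with earlier results of these data known. All 30 genes are named; array values are given for the 3 of each class with the largest mean over preparations 1 and 2 and for those of 1 sign on their 4 arrays, and Cdkn1c and Nap1l5 were added after their values were seen. Of other lists, at most 4 genes of 1 sign on those arrays are named. Alternatives were another direction of preparation 3, leaving out each preparation, array-level fits, single dye orientations, centring, exact zeros as missing, and other ways to combine probes.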

Additional observations from a re-analysis of the deposited data

Results flagged for a closer look

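In 8 of the 30 imprinted genes, each of the 3 arrays with female RNA in Cy5 gave the opposite sign to each of the 3 arrays with female RNA in Cy3, with labels kept. The difference was not tested. The dye effect, log2 Cy5 over Cy3 over 6 arrays, was -0.217 for Meg3, 0.653 for Ascl2, 0.223 for Kcnq1, 0.448 for Gatm, -0.518 for Rian, 0.181 for Igf2, 0.455 for Mkrn3 and -0.682 for Airn. The share of named autosomal genes with that pattern was 23.2%. No group of arrays was large enough to look for single outlying arrays.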

How the results depend on the processing

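No imprinted gene passed limma's threshold in any setting tried, and the lowest adjusted p among them was 0.169, with female RNA in Cy5 only. Over all rows 0 were called with labels kept, but 39 in the 6-array fit with replicate block and dye term and preparation 3 turned. With female RNA in Cy3 only 628 were called, against 0 with female RNA in Cy5 only. The cause of these counts was not tested. Within a single orientation sex and dye cannot be told apart, in these counts or in the adjusted p of 0.169. The replicate block and dye term with labels kept called 0 rows. The median of maternally expressed genes, -0.028 as labelled, was -0.062 with preparation 3 turned, in the means of preparations and with the replicate block and dye term alike. It was 0.047 with female RNA in Cy5 only, -0.25 with female RNA in Cy3 only and -0.088 as a mean over genes. The median of paternally expressed genes (0.010) ranged from -0.011 to 0.047 over the same alternatives, within its spread between preparations. Of the 30 gene values, none called, 10 changed sign or went to 0 with preparation 3 turned, 6, 8 and 7 without replicate 1, 2 and 3, 10 and 12 in single orientations, 2 with the median of probes, and 0 with arrays centred or exact zeros as missing. Leaving out probes of large dye effect, an alternative added after seeing the data, left 25 genes, of which 1 changed sign. Depth is unknown, and 22 genes rest on 1 probe.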

Other observations

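Markers of other cell types that a blastocyst pool could hold had these values in preparations 1, 2 and the one labelled 3, with labels kept. Trophectoderm genes had medians of -0.090, 0.022 and -0.038 over 13 genes, of which 7 were above 0 over preparations 1 and 2. Within that list Cdx2, which specifies trophectoderm, stood at -0.53, -0.15 and -0.038, the keratin Krt7 at -0.29, -0.38 and 0.35, and the tetraspanin Tspan8 at 0.25, 0.076 and -0.13. Primitive endoderm genes had medians of 0.16, -0.020 and -0.078 over 10 genes. Inner cell mass genes included the pluripotency factors Nanog, at 0.37, 0.41 and -0.38, Sox2, at 0.18, 0.29 and -0.37, and Klf4, at 0.28, 0.27 and -0.21. Oocyte genes had medians of -0.071, 0.029 and 0.025 over 8 genes, and the zona protein gene Zp3 stood at 0.21, 0.066 and -0.069. Genes of cumulus cells and oviduct had medians of 0.032, -0.040 and -0.042 over 4 genes, and blood genes 0.042, -0.28 and -0.0034 over 3. Whether any of these moved the imprinted genes was not tested.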
